A study of Homo sapiens with 27 samples.

Results

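*CKB*, *EEF1A2* and *FAM43A* are 3 genes that had lower RNA counts in uveal melanoma (UM) cells given an inhibitor of focal adhesion kinase (FAK) than in cells given vehicle, on each of 4 days of a time course. They were chosen for that pattern, so their difference between inhibitor and vehicle is given here as a description without a test. The paralogs *EEF1A1* and *CKMT1A* were set beside them and were tested. These 5 genes are 5 of 61533 genes in the count table.

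The libraries came from 92.1 cells, an established UM line that carries a *GNAQ* mutation. The FAK inhibitor VS-4718 (FAKi) was given at 100 nM, DMSO served as vehicle, and RNA was collected on days 0, 3, 7, 14 and 21. DMSO cultures were sampled on all of these days and FAKi cultures from day 3 on, which gave 9 groups of 3 libraries and 27 libraries in all. A single cell line and a single dose were used, and the methods describe triplicate plating and 3 repeats of the experiment without saying which of these a replicate number stands for, so that the tests below measure the spread between libraries, which may in part be technical. Total counts ranged from 12161994 to 43651551 per library. The melanocyte lineage markers *MITF*, *SOX10*, *PMEL*, *MLANA*, *TYR* and *TYRP1* had medians from 219 to 5461 CPM (counts scaled to a common library size), and *DCT* had a median of 10.3 CPM. Median levels of the neuronal, muscle, fibroblast and immune markers were at most 5.39 CPM, apart from *CD68* at 70.8 CPM.

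The libraries were of 2 kinds that did not follow the groups. In 8 libraries, the 39 rows of *EEF1A1* pseudogenes added up to between 192% and 200% of the counts of *EEF1A1* itself, and in the other 19 they added up to between 79.9% and 109%. The 8 were the 6 libraries of day 21 together with DMSO replicates 2 and 3 of day 3. The same 8 had between 5.49% and 11.2% of their counts in mitochondrial genes, against 16.8% to 27% in the other 19. Inhibitor and vehicle were therefore of the same kind on days 7, 14 and 21, whereas on day 3 only DMSO replicate 1 was of the kind of the FAKi libraries. A difference between day 21 and an earlier day cannot be told apart from the kind in FAKi, nor in DMSO against days 0, 7 and 14. DMSO day 3 held libraries of both kinds. The kinds are given beside each result that they touch. FAKi day 7 replicate 1 was also unusually close to a library of another group. Its root mean square difference to FAKi day 14 replicate 1 was 0.215 on the log2 scale over 16982 genes. This was below the lowest value between libraries of 1 group, which was 0.228 (median 0.397).

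The chosen genes have different known roles. *CKB* encodes the brain-type cytosolic creatine kinase, which moves phosphate between ATP and creatine and so buffers the supply of ATP, and *CKMT1A* and its near copy *CKMT1B* encode the ubiquitous mitochondrial creatine kinase, which charges creatine at the mitochondrion. *EEF1A2* and *EEF1A1* encode 2 forms of elongation factor 1A, which brings aminoacyl-tRNA to the ribosome. *EEF1A1* is used in nearly all cells, whereas *EEF1A2* is best known from neurons, heart and skeletal muscle and has also been described in tumors. *FAM43A* encodes a little-studied protein with a phosphotyrosine interaction domain (PID), a fold that binds peptides in adaptor proteins.

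In the hg38 annotation of the count table, *CKB* (ENSG00000166165.14) lay on the minus strand at chr14:103519667-103522830, *EEF1A2* (ENSG00000101210.13) on the minus strand at chr20:63488014-63499083, and *FAM43A* (ENSG00000185112.6) on the plus strand at chr3:194685883-194689037. *EEF1A1* (ENSG00000156508.19) lay on the minus strand at chr6:73517515-73521373 and *CKMT1A* (ENSG00000223572.10) on the plus strand at chr15:43693859-43699222. The counted transcripts of the chosen genes were rich in G and C, with 65% in *CKB*, 64.6% in *EEF1A2* and 62.0% in *FAM43A*, against 47.5% in *EEF1A1* and 55.0% in *CKMT1A*. The counted *FAM43A* transcript has 1 exon, and no exon of another gene overlapped those of the 5 genes on either strand. The 250 bases before the start sites of *CKB* and *FAM43A* are shown as the start regions of genes chosen for a shared pattern, and no window is shown for *EEF1A2*. They are RefSeq sequences of GRCh38.p14 in the direction of transcription, at chr14:103522831-103523080 on the minus strand and chr3:194685633-194685882 on the plus strand. Capitals mark TATAAA (the TATA box), CCAAT (the CCAAT box) and GGAATG (a match to the TEAD motif), each searched on both strands.
CKB: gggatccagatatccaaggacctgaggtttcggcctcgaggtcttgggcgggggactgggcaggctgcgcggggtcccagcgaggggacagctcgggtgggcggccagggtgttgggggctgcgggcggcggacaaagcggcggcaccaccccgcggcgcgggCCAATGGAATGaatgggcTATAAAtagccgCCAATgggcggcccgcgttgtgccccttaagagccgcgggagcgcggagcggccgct
FAM43A: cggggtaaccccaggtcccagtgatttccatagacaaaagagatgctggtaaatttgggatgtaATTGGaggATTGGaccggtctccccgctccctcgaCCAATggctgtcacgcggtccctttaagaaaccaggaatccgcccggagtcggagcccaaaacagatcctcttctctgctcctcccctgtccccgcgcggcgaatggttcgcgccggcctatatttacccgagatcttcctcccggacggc

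The 2 windows held different letters. In *CKB* there was 1 TATAAA match, whose first base was at -69 from the start site, 2 CCAAT matches at -87 and -57, and 1 GGAATG match at -82 that overlapped none of the TATAAA letters and directly followed the CCAAT at -87. The *CKB* window also held 4 matches of GGGCGG (the GC box). In *FAM43A* there were 3 CCAAT matches at -186, -178 and -151 and 1 GGGCGG match, and neither TATAAA nor GGAATG was found. Of 35116 windows of the same length, 10.7% held TATAAA, 32% held CCAAT, 42.6% held GGGCGG and 11.9% held GGAATG. None of CACGTG (the E box), TGANTCA (the AP-1 site) and TGACGTCA (the CRE) was in either window. G and C made up 70.8% of the *CKB* window and 58.0% of the *FAM43A* window, and the median over all windows was 58.0%.

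Levels were compared between genes as CPM per kilobase of transcript. By the median over the 27 libraries, *EEF1A1* stood at 1889 CPM per kilobase, *CKB* at 81.1, *EEF1A2* at 13, *FAM43A* at 5.63 and *CKMT1A* at 5.21. *CKB* had 1207 to 17978 counts per library, *EEF1A2* had 143 to 2985, *FAM43A* had 62 to 1667 and *CKMT1A* had 100 to 476, so that the lowest counts of *FAM43A* carried the largest counting error. Between the lowest and the highest library, the CPM of *CKB* differed 10.8-fold, that of *EEF1A2* 14.0-fold and that of *FAM43A* 15.3-fold, against 1.65-fold for *EEF1A1* and 2.63-fold for *CKMT1A*.

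*CKB* was lower with FAKi on every day, least on day 14 and most on day 21. In DMSO, the 3 libraries had 183, 211 and 204 CPM on day 0, 252, 260 and 374 CPM on day 3, and 140, 170 and 164 CPM on day 7. On day 14 they had 87.9, 82.2 and 73.6 CPM, and on day 21 they had 515, 541 and 347 CPM. The DMSO level was thus far from constant. In FAKi, *CKB* had 136, 120 and 107 CPM on day 3, 71.4, 107 and 79.8 CPM on day 7, 68.5, 66.9 and 49.999 CPM on day 14, and 67.2, 63.8 and 57.2 CPM on day 21. On each day the FAKi libraries lay below all DMSO libraries of that day, as they did for 15.8% of genes tested on day 3, 8.46% on day 7, 13.8% on day 14 and 18.9% on day 21. The FAKi level of *CKB* was 2.42-fold lower on day 3, 1.84-fold on day 7, 1.32-fold on day 14 and 7.18-fold on day 21. In bulk RNA, fewer cells that express a gene and less RNA of the gene per cell cannot be told apart.

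The order of the *CKB* group means ran from DMSO day 21 (468 ± 105 CPM, SD, n = 3) through DMSO day 3 (295 ± 67.9), day 0 (199 ± 14.2) and day 7 (158 ± 15.7) to FAKi day 3 (121 ± 14.7) and day 7 (86.2 ± 18.9), DMSO day 14 (81.2 ± 7.23), FAKi day 21 (62.8 ± 5.10) and FAKi day 14 (61.8 ± 10.2). Libraries of neighboring groups overlapped between DMSO days 21 and 3, between FAKi days 3 and 7, between FAKi day 7 and DMSO day 14, and between FAKi days 21 and 14. On day 21 the DMSO library with the lowest *CKB* level, replicate 3, had 9.75% of its counts in mitochondrial genes against 5.49% in each of the other DMSO libraries and 10.7% to 11.2% in the FAKi libraries. The part of this share in the day 21 difference was not tested.

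*EEF1A2* was lower with FAKi by a factor of 3 or more on days 3, 14 and 21 and by nearly as much on day 7. The DMSO libraries had 40.3, 48.6 and 38.8 CPM on day 0, 34.6, 48.1 and 72.3 CPM on day 3, 43.0, 42.7 and 41.3 CPM on day 7, 24, 22.9 and 18.9 CPM on day 14, and 85.5, 91.9 and 60.7 CPM on day 21. The FAKi libraries had 19.5, 15.9 and 13.9 CPM on day 3, 7.09, 20.7 and 14.8 CPM on day 7, 6.59, 7.55 and 6.90 CPM on day 14, and 17.2, 17.9 and 13.2 CPM on day 21. No FAKi library reached the lowest DMSO library of its day. The FAKi level was 3.11-fold lower on day 3, 2.99-fold on day 7, 3.14-fold on day 14 and 4.76-fold on day 21. On day 3 the highest DMSO values were those of replicates 2 and 3, the 2 libraries of the other kind, and with both left out the difference was 2.09-fold. By group mean the order was DMSO day 21 (79.4 ± 16.4 CPM), day 3 (51.7 ± 19.1), day 0 (42.6 ± 5.26), day 7 (42.3 ± 0.900) and day 14 (21.9 ± 2.68), then FAKi day 3 (16.4 ± 2.83), day 21 (16.1 ± 2.53), day 7 (14.2 ± 6.84) and day 14 (7.01 ± 0.492). All neighbors in that order overlapped except DMSO days 7 and 14.

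*FAM43A* had the most even DMSO level of the 3 chosen genes outside day 14. The DMSO libraries had 31.8, 32.5 and 32.1 CPM on day 0, 37.1, 31.1 and 35.8 CPM on day 3, 27.8, 29.8 and 31.5 CPM on day 7, 11.5, 11.1 and 12.9 CPM on day 14, and 28.9, 29.9 and 30.7 CPM on day 21. The FAKi libraries had 19.6, 16.6 and 17.7 CPM on day 3, 6.45, 13.3 and 10.5 CPM on day 7, 5.71, 4.73 and 2.43 CPM on day 14, and 14.2, 14.0 and 14.4 CPM on day 21. These groups did not overlap on any day either. The FAKi level was 1.91-fold lower on day 3, 2.96-fold on day 7, 2.74-fold on day 14 and 2.03-fold on day 21. The group means fell in the order DMSO day 3 (34.7 ± 3.18 CPM), day 0 (32.1 ± 0.359), day 21 (29.8 ± 0.909) and day 7 (29.7 ± 1.87), FAKi day 3 (18.0 ± 1.55), FAKi day 21 (14.2 ± 0.229), DMSO day 14 (11.8 ± 0.923), FAKi day 7 (10.1 ± 3.44) and FAKi day 14 (4.29 ± 1.69). Overlap between neighbors was seen for DMSO days 3 and 0, DMSO days 21 and 7, and DMSO day 14 with FAKi day 7.

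**Figure D1:**
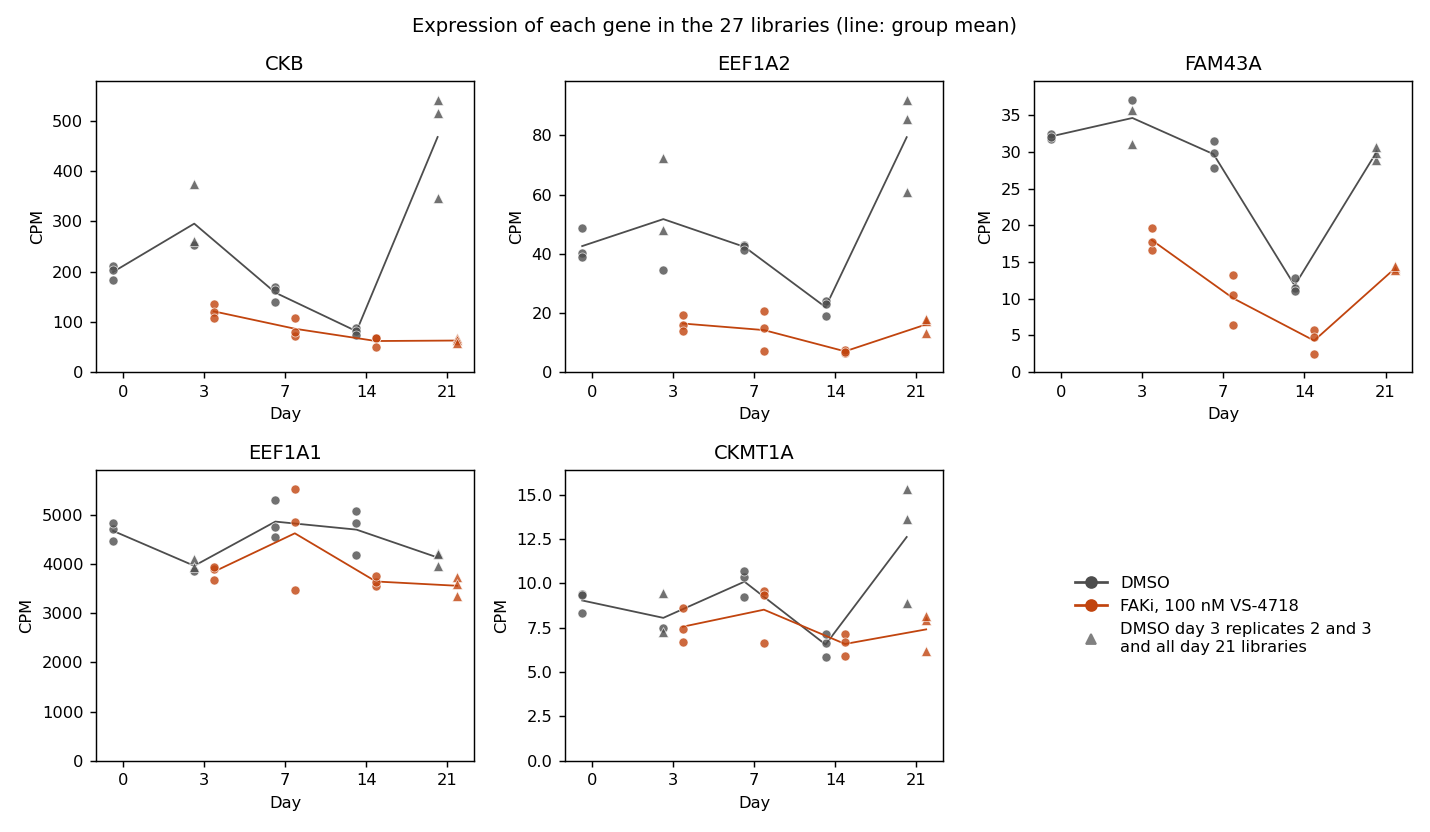
Level of each gene in CPM (y axis, from 0) in each of the 27 libraries by day (x axis), in DMSO (gray) and FAKi (orange). Points are libraries, lines join group means, and triangles mark DMSO replicates 2 and 3 of day 3 and the 6 libraries of day 21; *CKB*, *EEF1A2* and *FAM43A* are lower in FAKi on all 4 days, and their DMSO levels are low on day 14.

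Every FAKi library lay below every DMSO library on all 4 days for 87 of 21147 genes (0.411%), and the 3 chosen genes, which were picked for being lower on these days, were among them. Among the paralogs, FAKi libraries lay below all DMSO libraries for *EEF1A1* on days 14 and 21 and for *CKMT1A* on day 21. The mean log2 difference over the 4 days was -1.35 (SE 0.09) for *CKB*, -1.78 (SE 0.13) for *EEF1A2* and -1.25 (SE 0.11) for *FAM43A*. Without DMSO replicates 2 and 3 of day 3 these values were -1.30, -1.64 and -1.27. For day 3 alone, the same omission gave -1.05 for *CKB*, -1.06 for *EEF1A2* and -1.03 for *FAM43A*, against -1.28, -1.64 and -0.93 with all libraries, and it left 1 DMSO library whose spread is assumed to be that of the FAKi group. Without FAKi day 7 replicate 1, which had the lowest day 7 level of all 3 genes, the day 7 differences were -0.76, -1.25 and -1.32, against -0.88, -1.58 and -1.56 with it.

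**Figure D2:**
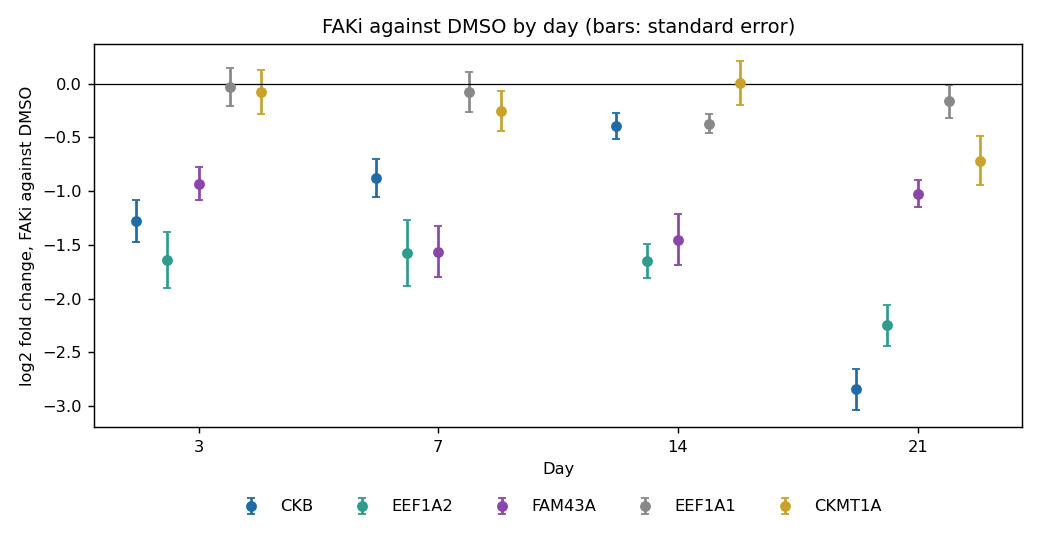
log2 fold change of FAKi against DMSO (y axis) on days 3, 7, 14 and 21 (x axis) for the 5 genes, with bars for the standard error of the edgeR fit (3 libraries per group). *CKB* ranges from -0.40 on day 14 to -2.84 on day 21, *EEF1A2* and *FAM43A* are below -0.9 on each day, and *EEF1A1* stays between -0.37 and -0.03.

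The paralogs, which can be tested, differed by less than 2-fold between FAKi and DMSO on every day. *EEF1A1* had 3350 to 5523 CPM over all libraries. On day 14 its 3 DMSO libraries had 5073, 4187 and 4819 CPM and its FAKi libraries had 3540, 3621 and 3761 CPM, a log2 difference of -0.37 (SE 0.09) with an adjusted p of 0.00719 by the quasi-likelihood test of edgeR, with p-values adjusted by Benjamini-Hochberg over all genes, where 12.4% of genes had an adjusted p of at most 0.05. This is under the 2-fold change required here for a call, and the adjusted p was 0.0676 without FAKi replicate 1, 0.0656 without FAKi replicate 2 and 0.128 with all libraries in 1 model. On days 3, 7 and 21 the *EEF1A1* differences were -0.03, -0.08 and -0.17, with adjusted p-values of 0.925, 0.924 and 0.485 by the same edgeR test. On these days 0, 0.0269% and 11.6% of genes tested passed the adjusted p. The count of 0 on day 3 was reached although 23.8% of genes had an unadjusted p under 0.05, and DESeq2 passed 1838 genes there, with an adjusted p of 0.923 for *EEF1A1* and 0.864 for *CKMT1A*. The mean over the 4 days was -0.17 (SE 0.08), with an adjusted p of 0.137 by edgeR and 0.0377 by DESeq2.

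Counts assigned to *CKMT1A*, 14.0% to 28.6% of those of *CKMT1A* and *CKMT1B* together, were close between FAKi and DMSO until day 21. The *CKMT1A* log2 differences were -0.08 on day 3, -0.25 on day 7 and 0.00 on day 14, with edgeR adjusted p-values of 0.831, 0.731 and 0.994. *CKMT1B* had -0.34 on day 7 and -0.37 on day 14 (edgeR adjusted p = 0.574 and 0.0787). Both copies summed had -0.32 and -0.30 (edgeR adjusted p = 0.581 and 0.127). On day 14 *CKMT1A* held 17.1% of both copies in DMSO and 21.1% in FAKi. On day 21 the DMSO libraries had 13.6, 15.3 and 8.89 CPM of *CKMT1A* and the FAKi libraries 7.92, 8.15 and 6.16 CPM, so that the groups did not overlap. This difference of -0.72 (SE 0.23) did not pass, with an edgeR adjusted p of 0.0726, but it passed the adjusted p in 7 of 16 alternatives. On day 21 same-numbered libraries deviated together in replicates 1 and 3 (r of 0.443 and 0.658) and less so in replicate 2 (0.128). With the replicate as a block the difference was -0.69 with an edgeR adjusted p of 0.00776, while without DMSO replicate 3 it was -0.91 with an adjusted p of 1.46e-04. Both remained under 2-fold. The mean over 4 days was -0.27 (SE 0.10), with an adjusted p of 0.0694 by edgeR, 0.0146 by edgeR without DMSO day 21 replicate 3 and 0.0390 by DESeq2. A difference of the FAKi effect between days was not detected (adjusted p = 0.217 by the edgeR F test), although it passed without DMSO day 21 replicate 3 (adjusted p = 0.0462).

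Counts of the paralogs depend on how reads were shared among near copies, and those of the chosen genes do not in the same way. Of all stretches of 50 bases in the counted transcripts, 0 were shared with another gene for *CKB*, *EEF1A2* and *FAM43A*. Of those of *EEF1A1*, 58.5% occurred in at least 1 of 27 other genes, 26 of which were *EEF1A1* pseudogenes, and *EEF1A1P5* alone held 51.5%. *CKMT1A* shared 88.4% of its stretches with *CKMT1B*, its neighbor copy on the same chromosome. The levels of *EEF1A1* and *CKMT1A* are uncertain to that extent. With *EEF1A1* and its pseudogenes summed, the mean FAKi effect was -0.28 (edgeR adjusted p = 0.0297). That sum is touched by the 2 kinds of library, since on day 3 the pseudogene rows made up 199% to 200% of *EEF1A1* in DMSO replicates 2 and 3, 108% in DMSO replicate 1 and 101% to 109% in FAKi. The summed day 3 difference was -0.43 with all libraries and -0.03 without the 2, and the summed mean over 4 days without them was -0.18 (edgeR adjusted p = 0.206). With *CKMT1A* and *CKMT1B* summed, the mean FAKi effect was -0.30 (edgeR adjusted p = 0.00934). *CKMT1B* by itself had a mean effect of -0.30 (SE 0.08, edgeR adjusted p = 0.0101).

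The share of each chosen gene in its family was computed per kilobase, as a description. *EEF1A2* made up a small part of the summed *EEF1A1* and *EEF1A2* level. In DMSO its share was 1.11% ± 0.0982 (SD, n = 3) on day 0, 1.58% ± 0.571 on day 3, 1.06% ± 0.0762 on day 7, 0.576% ± 0.0932 on day 14 and 2.32% ± 0.524 on day 21. In FAKi it was 0.523% ± 0.0779, 0.367% ± 0.140, 0.237% ± 0.0169 and 0.553% ± 0.0650 on days 3, 7, 14 and 21. The share was lower in every FAKi library than in every DMSO library of the same day. *CKB* made up most of the summed level of *CKB*, *CKMT1A* and *CKMT1B*, with 87.8% ± 0.888 on day 0. On day 14 its share was 75.6% ± 2.76 in DMSO and 73.9% ± 1.81 in FAKi, which overlapped, and on day 21 it was 93.2% ± 0.158 in DMSO and 73.2% ± 0.320 in FAKi. Pseudogene assignment differed between the 2 kinds of library and enters the *EEF1A2* share through *EEF1A1*, and its part in the high day 21 value was not tested.

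**Figure D3:**
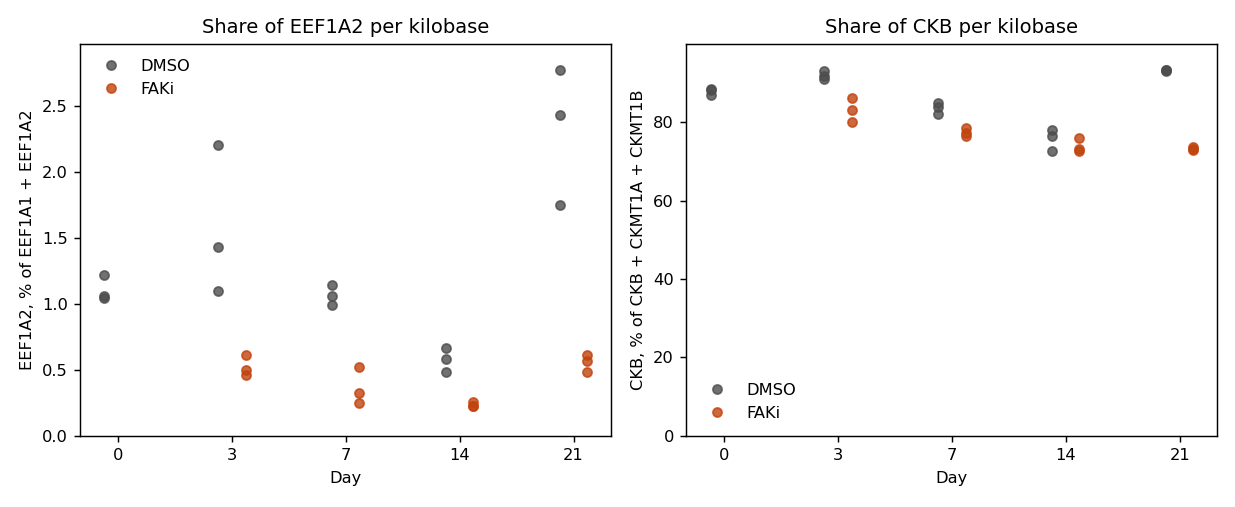
Share of *EEF1A2* in the summed level of *EEF1A1* and *EEF1A2* (left) and of *CKB* in that of *CKB*, *CKMT1A* and *CKMT1B* (right), in percent from 0, by day, with 1 point per library in DMSO (gray) and FAKi (orange). The *EEF1A2* share lies between 0.225% and 2.78%, and the *CKB* share between 72.5% and 93.4%.

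Levels were also compared between days within DMSO. The DMSO libraries of days 3 to 21 are among those by which the 3 chosen genes were picked, so their differences between days are given as values without a test, and the paralogs were tested. All 3 chosen genes were lower on day 14 than on day 0, with log2 differences of -1.29 (SE 0.18) for *CKB*, -0.95 (SE 0.22) for *EEF1A2* and -1.44 (SE 0.12) for *FAM43A*. The day 14 libraries of *CKB*, *EEF1A2* and *FAM43A* all lay below those of day 0. The share of all genes with such a separation was not computed, so this separation is a description only. The 2 days are of the same kind of library, and the mitochondrial share was 22% to 27% on day 14 against 17% to 18.8% on day 0, whose part in the difference was not tested. *EEF1A1* differed by 0.01 (adjusted p = 0.973) and *CKMT1A* by -0.46 (adjusted p = 0.128) in the edgeR quasi-likelihood test over the 15 DMSO libraries, where 6.14% of all genes were called. On days 3 and 7 neither paralog passed against day 0 by edgeR or by DESeq2. Of all genes, edgeR passed 0 on day 3, where 10.1% had an unadjusted p under 0.05, and 0.157% on day 7, and DESeq2 passed 225 and 133.

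On day 21 the DMSO level of *CKB* was above that of day 0 by 1.24 (SE 0.18) on the log2 scale and that of *EEF1A2* by 0.91 (SE 0.22), while *FAM43A* differed by -0.10 (SE 0.12). These are descriptions for the reason given, since a gene lower in FAKi than in DMSO on day 21 is more likely to be picked where its DMSO level is high. *EEF1A1* differed by -0.17 (edgeR adjusted p = 0.371) and *CKMT1A* by 0.49 (edgeR adjusted p = 0.0571), in a comparison that called 19.3% of all genes. The *CKMT1A* difference passed the adjusted p without DMSO day 21 replicate 3 (0.62, edgeR adjusted p = 0.00706), with 10 counts required in every library (edgeR adjusted p = 0.0440) and by DESeq2 (adjusted p = 0.0461), and stayed under 2-fold. Day 21 and the kind of library cannot be told apart here. Over all 5 DMSO days, *CKMT1A* differed between days by the edgeR F test (adjusted p = 0.00635), as 49.9% of all genes did, and *EEF1A1* did not pass (adjusted p = 0.261).

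Within the inhibitor, all 3 chosen genes had lower levels on day 14 than on day 3, between libraries of the same kind. The log2 differences were -2.07 (SE 0.26) for *FAM43A*, -1.24 (SE 0.27) for *EEF1A2* and -0.98 (SE 0.16) for *CKB*. The FAKi libraries also entered the choice of these genes, so no test is given. On day 21 against day 3, which are of different kinds, the differences were -0.92 (SE 0.16) for *CKB*, -0.00 (SE 0.26) for *EEF1A2* and -0.32 (SE 0.25) for *FAM43A*. *EEF1A1* and *CKMT1A* passed the edgeR test on neither day, where 3.61% of all genes were called on day 14 and 17.4% on day 21. By the edgeR F test over the 4 FAKi days, where 45.1% of all genes passed, *EEF1A1* had an adjusted p of 0.124, and 4.20e-05 without FAKi day 7 replicate 1.

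Differences between FAKi and DMSO moved with the base composition of transcripts on some days. On day 3 the median log2 difference was 0.31 over the 10% of genes with the lowest G and C content and -0.40 over the 10% with the highest, which hold all 3 chosen genes. In that highest group the medians were -0.11 on day 7, 0.15 on day 14 and -0.16 on day 21. The lowest 5% of genes in it lay below -1.09 on day 3, -0.75 on day 7, -0.70 on day 14 and -1.10 on day 21. With each library corrected for transcript length and G and C content, the day 3 differences were -0.84 for *CKB*, -1.22 for *EEF1A2* and -0.65 for *FAM43A*, and the mean over 4 days stayed between -1.16 and -1.40 for *CKB*, between -1.61 and -1.88 for *EEF1A2* and between -1.17 and -1.31 for *FAM43A* over all alternatives run.

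**Figure D4:**
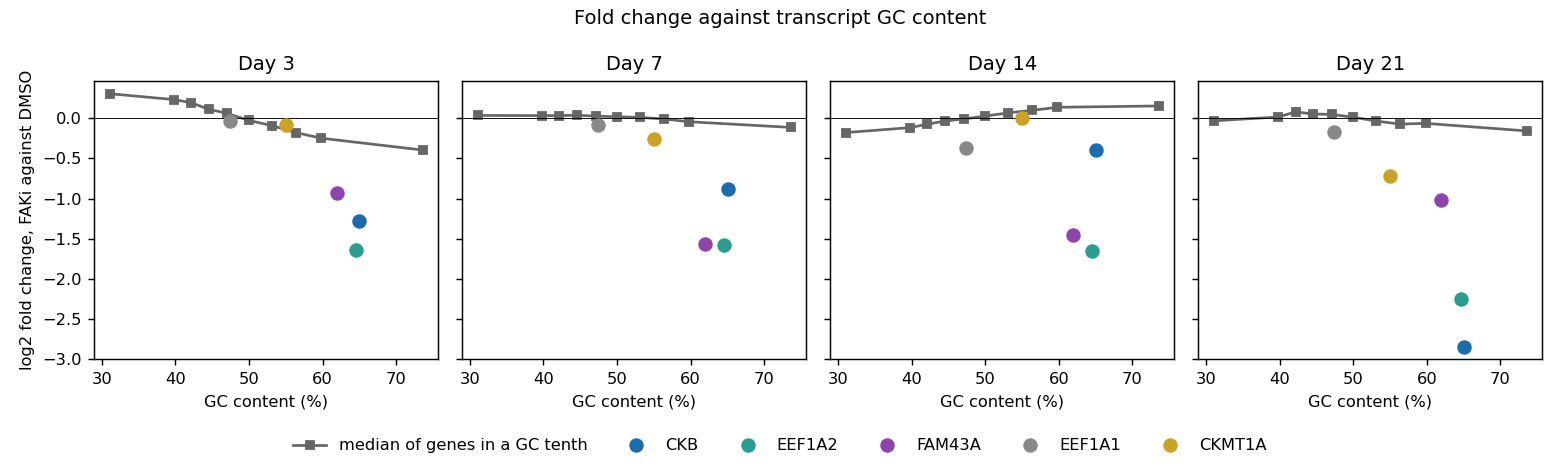
log2 fold change of FAKi against DMSO (y axis) by G and C content of the transcript in percent (x axis) on days 3, 7, 14 and 21. Gray squares are medians over groups of 10% of genes ordered by content, from 0.31 to -0.40 on day 3, and colored points are the 5 genes, of which *CKB*, *EEF1A2* and *FAM43A* lie below the medians on all days.

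Relatives of the chosen genes were followed as 5 lists, of which 68 of 71 genes had enough counts to test without the chosen genes. In the mean over 4 days, 12 were lower and 3 higher at an adjusted p of at most 0.05 by the edgeR quasi-likelihood test, 15 in all, against 8.7% of all genes lower, 6.96% higher and 15.7% in all. With DMSO replicates 2 and 3 of day 3 left out, 5 were lower and 2 higher, and over all genes the shares were 3.85% lower and 2.92% higher, so that the number passing was smaller among all genes as well.

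The creatine list holds the creatine kinases, the enzymes of creatine synthesis and the creatine transporter. Against 8.7% of all genes lower and 6.96% higher, 1 of its 6 tested genes was lower and 0 were higher. This was *CKMT1B*, which also passed without the 2 day 3 libraries. The creatine transporter *SLC6A8*, at a mean of 151 CPM, had a difference of -0.14 (SE 0.06) and *GAMT*, which completes creatine synthesis, one of -0.33 (SE 0.12), neither of which passed. The median over the list was -0.20, against 0.01 over all genes. Adenylate kinases, which also move phosphate between adenine nucleotides, showed no change that passed in 9 tested genes, with a median of -0.05. Of all genes, 15.7% passed. The cytosolic *AK1* had a difference of -0.15 (SE 0.12, edgeR adjusted p = 0.399).

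Of the translation elongation list, 8 of 22 tested genes were lower and 0 were higher in the mean over 4 days. Of all genes, 8.7% were lower and 6.96% higher by this rule. The list had a median of -0.18. Single days were less one-sided, with 4 lower and 3 higher on day 14 and a median of -0.05, where 12.4% of all genes passed. On day 21, 2 were lower and 0 higher, where 11.6% of all genes passed, and on days 3 and 7 the list had 0 that passed. The 8 lower in the mean included *EEF1D* (-0.58, SE 0.12, edgeR adjusted p = 0.00202), *EEF1B2* (-0.32, SE 0.11, which passed in 11 of 33 alternatives) and *EEF1G* (-0.27, SE 0.08), subunits of the complex that reloads elongation factor 1A with GTP. *EEF2*, the factor that moves the ribosome along the message, was at a mean of 5398 CPM and was lower by a log2 difference of -0.31 (SE 0.09, edgeR adjusted p = 0.0159). *EEF1AKMT4*, *EEF1E1*, *DPH5* and *DPH6* completed the 8. None reached 2-fold. Without DMSO replicates 2 and 3 of day 3, *EEF1D* was the only one of the 8 to pass, at -0.49. The values of the others without those libraries included -0.28 for *EEF2* (edgeR adjusted p = 0.0633), -0.46 for *EEF1AKMT4* and -0.13 for *EEF1B2*. Of 8 related factors, which include release factors and mitochondrial elongation factors, only the mitochondrial elongation factor *TUFM* passed (-0.32, SE 0.08, edgeR adjusted p = 0.00539), with and without them, and the list had a median of -0.06.

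Of the genes with a PID domain, 3 of 23 tested were higher and 2 lower, with a median of 0.08. Of all genes, 6.96% were higher and 8.7% lower. *DAB2*, an endocytic adaptor, was at a mean of 222 CPM and rose by 1.04 (SE 0.09, edgeR adjusted p = 2.71e-08). It was the only listed gene called in the mean over 4 days, where 1.89% of all genes were called, and its value was 0.92 without the 2 day 3 libraries. *NUMB*, an inhibitor of Notch signaling, rose by 0.33 (SE 0.09) and *APPL2*, an endosomal adaptor, by 0.25 (SE 0.07). The *NUMB* change did not pass without the 2 day 3 libraries (edgeR adjusted p = 0.112). The scaffold genes *MAPK8IP2* (-0.44, SE 0.07) and *MAPK8IP1* (-0.41, SE 0.10) were lower. *FAM43B*, the paralog of *FAM43A*, had too few counts to test.

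**Figure D5:**
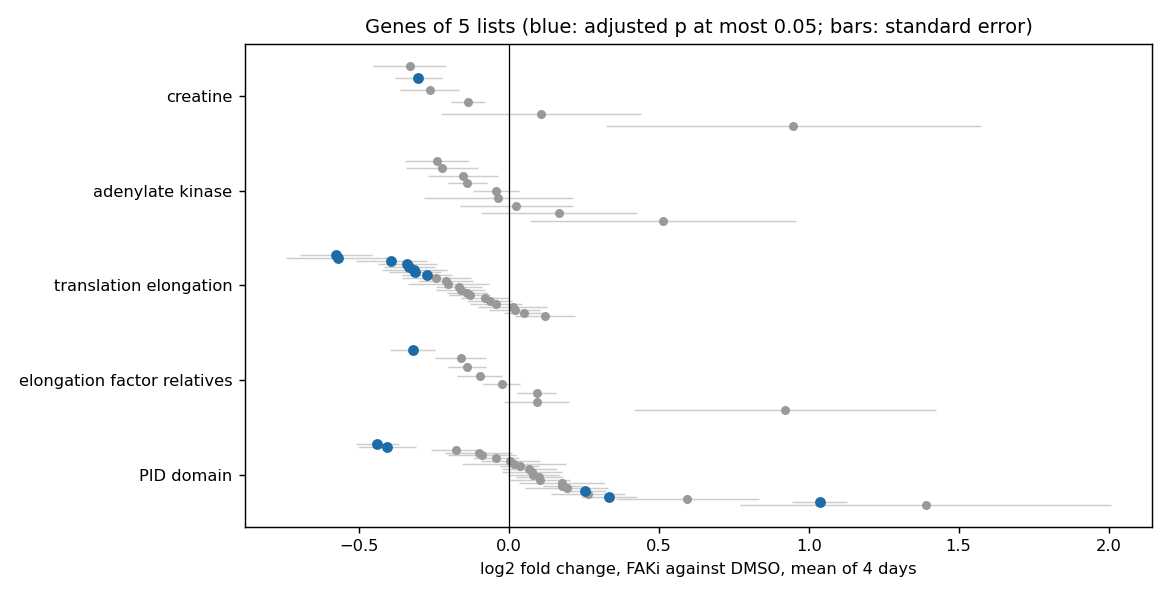
Mean log2 fold change of FAKi against DMSO over 4 days (x axis) for the tested genes of the 5 lists (y axis), without *CKB*, *EEF1A2* and *FAM43A*. Blue points have an adjusted p of at most 0.05 and bars are standard errors; *DAB2* at 1.04 is the only blue point past 1, and none lies below -1.

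The 3 chosen genes followed one another across libraries. Pearson's r of log2 CPM over the 27 libraries, which share treatments, days and kinds, was 0.904 for *CKB* with *EEF1A2*, 0.886 for *EEF1A2* with *FAM43A* and 0.803 for *CKB* with *FAM43A*. *EEF1A2* and *EEF1A1* had an r of 0.417, and *CKB* and *CKMT1A* one of 0.725. These are descriptions and reflect in part the rule that chose the genes.

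The genes whose pattern over the 27 libraries was most like each chosen gene were taken from 16981 genes with a mean of at least 1 CPM. For *CKB* they were *WFDC1* (r = 0.963), *PDLIM1* (0.962), *COTL1* (0.955), *IGFBP2* (0.949) and *INPP5A* (0.942). For *EEF1A2* they were *TESC* (0.958), *CA11* (0.946), *HES7* (0.938), *RCOR2* (0.935) and *CDKN1C* (0.929). For *FAM43A* they were *EPHA2* (0.947), *YBX3* (0.946), *RCOR2* (0.944), *FBLN2* (0.944) and *GDF15* (0.940). *RCOR2*, a corepressor gene, stood in 2 of these lists. By Spearman's rho, 2, 3 and 2 of the 5 genes were again among the top 5.

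The genes beside the chosen genes were also followed. The nearest expressed genes on each side were *MARK3* and ENSG00000260285 for *CKB*, *ARFGAP1* and *PPDPF* for *EEF1A2*, and *LSG1* and *XXYLT1* for *FAM43A*. Their mean log2 differences over 4 days lay between -0.04 and 0.25. Single days went in both directions, with 0.63, -0.93, -0.75 and 1.33 on days 3, 7, 14 and 21 for ENSG00000260285, 2180 bases from *CKB*, and -0.45 on day 3 and 0.58 on day 14 for *ARFGAP1*. In the mean none was called, and only *XXYLT1* had an adjusted p of at most 0.05 (0.25, SE 0.07, edgeR adjusted p = 0.0114), lying 379247 bases from *FAM43A*.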

How the data were processed

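RNA sequencing libraries were made with a stranded mRNA kit. The authors deposited raw counts per gene, counted on exons with HOMER from reads aligned to hg38, with GENCODE version 39 gene models and 1 transcript per gene. The submitters' processing notes name Trim Galore, FastQC 0.11.8, STAR 2.5.3a, HOMER and DESeq2, and the counting command names no strand option. How reads with several equal alignments were assigned is not given in the sources used here. All 27 count columns were mapped to samples by their labels. The column label of DMSO day 21 replicate 3 could be read as day 7 or day 21, and the sample title, which names day 21, was followed. In this library the *EEF1A1* pseudogene rows added up to 192% of *EEF1A1*, against 105% to 107% in the DMSO libraries of day 7.

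Counts were scaled by TMM and tested with edgeR 4.0.16 (quasi-likelihood) in R 4.3.3 with limma 3.58.1. Genes with at least 20 counts in total over the fitted libraries were kept, p-values were adjusted by Benjamini-Hochberg over all genes tested, and a gene was called where the adjusted p did not exceed 0.05 and the log2 fold change was above 1 or below -1. FAKi and DMSO were compared within each day, and as a mean of the 4 days. Days were compared within DMSO and within FAKi, where the tests that were planned for the 3 chosen genes are not reported, because the same libraries served to choose them. Levels are CPM scaled over all 27 libraries. Fold changes are those of the fitted model, and each SE was derived from the log2 fold change and the F value of the edgeR quasi-likelihood test. A level of 1 CPM stood for at least 12.2 counts. The steps were tested on simulated data. Alternatives were RLE scaling, other count filters, DESeq2 1.42.0, a replicate block, length and G and C correction, summed copies, a single model of all libraries, and leaving out each library. Those without DMSO replicates 2 and 3 of day 3, without mitochondrial genes, DESeq2 on DMSO days 3 and 7, summed *EEF1A1* copies without those libraries, and day 14 against day 3 in FAKi were chosen after seeing the data.

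Genes and lists were chosen with earlier results of these data known. The genes named are the 5 genes, listed genes that were called or passed the adjusted p in the mean over 4 days or had high CPM, the 5 genes most like each chosen gene and their nearest neighbors. Of the listed genes, only those of the mean over 4 days are described by name. The values of 1 listed gene are not reported here. Deviations of same-numbered DMSO and FAKi libraries had an r of 0.443, 0.128 and 0.658 for replicates 1 to 3 on day 21. On days 3, 7 and 14 the r ran from -0.144 to 0.107. Differently numbered libraries were not compared in this way, so pairing by number was not established. G and C content came from GENCODE version 44 transcripts, matched for 99.6% of transcripts.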

Additional observations from a re-analysis of the deposited data

Results flagged for a closer look

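Among the listed relatives, 8 of 68 tested genes had a FAKi effect that differed between days (adjusted p of at most 0.05). The test was the edgeR F test over days 3, 7, 14 and 21, which 10.3% of all genes passed. The 8 genes are a share near that of all genes and do not set the lists apart. In the creatine list these were *GAMT* (edgeR adjusted p = 0.0174), which had log2 differences of -1.06, -0.14, 0.52 and -0.64 on days 3, 7, 14 and 21, and *SLC6A8* (edgeR adjusted p = 0.0102), with -0.28, 0.02, 0.26 and -0.53. In the translation elongation list they were *EEF1E1* (edgeR adjusted p = 0.0192), with -0.46, -0.04, 0.11 and -0.94, *VARS1* (edgeR adjusted p = 0.0133), with -0.56, -0.26, 0.37 and -0.08, and *EIF5A* (edgeR adjusted p = 0.00798), with -0.70, 0.05, 0.45 and -0.43. In the PID list they were *SHC4* (edgeR adjusted p = 0.0206), with 0.47, 0.58, -0.69 and 0.72, *APPL1* (edgeR adjusted p = 0.0435), with 0.75, -0.02, -0.40 and -0.00, and *APBB3* (edgeR adjusted p = 0.00319), with 0.24, 0.24, -0.42 and 0.66. With DMSO replicates 2 and 3 of day 3 left out, *APPL1* no longer passed (edgeR adjusted p = 0.298) and the other 7 did. Groups of 3 libraries were too small to look for outlying samples by their gap to the others.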

How the results depend on the processing

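The lower levels of *CKB*, *EEF1A2* and *FAM43A* in FAKi had the same direction under all alternatives run on each day, with 3 libraries per group and 1 cell line as the limit. The genes were chosen for this direction, and their FAKi libraries lay below all DMSO libraries on each day. Leaving out a library could therefore not reverse it, and the kept direction is a description that adds no evidence for the difference. Length and G and C correction changed day 3 to -0.84 for *CKB*, -1.22 for *EEF1A2* and -0.65 for *FAM43A* (with the replicate block, -0.84, -1.19 and -0.65), and *CKB* on day 21 to -2.58 (block, -2.58). *EEF1A2* on day 3 was -1.06 without DMSO day 3 replicates 2 and 3, and *FAM43A* on day 21 was -0.98 with 10 counts required in every library and -1.07 in 1 model of all libraries (-1.06 to -0.98 leaving out 1 library). The causes of these shifts were not tested.

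Values near 0 changed sign without passing. *EEF1A1* on day 3 became 0.00398 and *CKMT1A* 0.0158 without DMSO replicates 2 and 3, and *CKMT1A* became 0.12 with the length and G and C correction (0.11 with the replicate block) and -0.18 to 0.0425 leaving out 1 library. *EEF1A1* on day 7 ran from -0.22 to 0.0870 leaving out 1 library, the latter without FAKi replicate 1. *CKMT1A* on day 14 was -0.00604 with 10 counts required, -0.0548 with length and G and C correction (-0.0518 with the block), -0.30 summed with *CKMT1B*, and -0.0713 to 0.0764 leaving out 1 library. In DMSO, *EEF1A1* on day 14 against day 0 was -0.00171 without both day 3 libraries and -0.0513 to 0.0874 leaving out 1. In FAKi on day 21 against day 3, *EEF1A2* was 6.05e-04 without a count filter and 0.0222 with 10 counts required (-0.11 to 0.13 leaving out 1), and *CKMT1A* was 0.00282 and 0.0240 (-0.0926 to 0.11).

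Leaving out 1 library, *EEF1A2* in DMSO on day 14 against day 0 ran from -1.02 to -0.86, beyond 2-fold without DMSO day 0 replicate 3 or day 14 replicate 1. In FAKi on day 14 against day 3, *CKB* ran from -1.06 to -0.84, beyond 2-fold without FAKi day 3 replicate 3, day 14 replicate 1 or day 14 replicate 2, and *EEF1A2* from -1.34 to -1.10, the latter without FAKi day 3 replicate 1. The F value of *CKMT1A* between days ran from 1.4999 to 4.68 and passed without DMSO day 21 replicate 3.

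The number of listed genes that passed in the mean over 4 days was 15, and 7 without DMSO day 3 replicates 2 and 3, where the share of all genes that passed went from 15.7% to 6.77%. That with a difference between days was 8, 4 with the correction and the block, 14 by DESeq2, 5 without FAKi day 14 replicate 1, 15 without DMSO day 3 replicate 1 and 18 without DMSO day 21 replicate 3. The replicate block changed no call of the paralogs *EEF1A1* and *CKMT1A*. However, *CKMT1A* on day 21 passed the edgeR adjusted p with the block and not without it, at under 2-fold. On day 21, where same-numbered libraries deviated together in replicates 1 and 3, the blocked differences were within the spread between libraries of those without the block. With mitochondrial genes left out of the totals, 35 of 45 group means of CPM moved by more than 1 SD, a change of scale that touches all genes of a library alike.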
